A study of Drosophila melanogaster with 2 samples.

Results

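Promoter and gene-body peaks of GFP-tagged CG30020 protein were examined at 10 core genes of the Notch pathway, among 13945 protein-coding genes on chromosome arms 2L, 2R, 3L, 3R, 4 and X. The members were taken by name: the receptor N, its ligands Dl and Ser, the ubiquitin ligases neur and mib1, the gamma-secretase subunits Psn and nct, and the nuclear components Su(H), H and mam. The data come from chromatin immunoprecipitation and sequencing (ChIP-seq) with an antibody to GFP in whole Drosophila melanogaster embryos of mixed sex, collected from 0 to 24 h. The embryos came from a transgenic line with GFP fused to the C terminus of CG30020, and the 1 group had 2 biological replicates, numbered 2 and 3 in the labels. The question asked of each gene was whether, where and how strongly CG30020-eGFP peaks lay at it. The labels give no second group, so there was no contrast and no test; values of the 2 replicates stand for the error throughout. Signal from a few cells with strong binding and from many cells with weak binding cannot be told apart in whole embryos.

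Notch signalling works between touching cells. The transmembrane ligands Delta (Dl) and Serrate (Ser) on one cell engage the receptor Notch (N) on its neighbour, and the ubiquitin ligases Neuralized (neur) and Mindbomb 1 (mib1) act on the ligands and drive their endocytosis, which activates the receptor. Gamma-secretase, with Presenilin (Psn) as its catalytic subunit and Nicastrin (nct) as a partner, then cuts the receptor within the membrane, and the freed intracellular domain joins Suppressor of Hairless (Su(H)) and Mastermind (mam) on DNA. Hairless (H) binds Su(H) and recruits corepressors that keep targets off. In the fly embryo the pathway is best known for lateral inhibition, which limits the number of neuroblasts.

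The sequences under the summits show what kind of DNA carried the peaks at genes with and without a call. They are read from the Release 6 genome (dm6) 5′ to 3′ on the strand of the gene, from 50 bases before to 50 after a summit, or, where that would pass the start site, over the 80 bases that end just before it. Capitals mark matches, on either strand, to 3 of the motifs described further on: the core CGATA, the letters of a TATA box (TATAAA) and the repeat bound by GAGA factor (GAGAG). A match on the opposite strand appears as its reverse complement. For N and Dl the summits come from the relaxed pooled list only, and the other windows belong to peaks that passed the reproducibility threshold (irreproducible discovery rate, IDR). The windows are N at chrX:3134730-3134830 on the plus strand, Dl at chr3R:19326280-19326380 on the minus strand, the inner promoter of neur at chr3R:9033890-9033990 on the minus strand, mib1 at chr3L:16011813-16011892 on the minus strand, Su(H) at chr2L:15039199-15039299 on the plus strand, H at chr3R:20621858-20621937 on the plus strand, and the N intron at chrX:3162459-3162559 on the plus strand.
N promoter: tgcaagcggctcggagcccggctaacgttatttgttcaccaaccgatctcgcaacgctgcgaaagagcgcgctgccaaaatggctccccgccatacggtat
Dl promoter: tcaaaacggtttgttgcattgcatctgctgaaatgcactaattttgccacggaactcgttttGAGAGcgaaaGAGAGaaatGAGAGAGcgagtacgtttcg
neur inner promoter: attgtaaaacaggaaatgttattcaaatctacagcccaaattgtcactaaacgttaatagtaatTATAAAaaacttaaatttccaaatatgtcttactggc
mib1 promoter: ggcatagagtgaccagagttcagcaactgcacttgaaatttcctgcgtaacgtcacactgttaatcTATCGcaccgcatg
Su(H) promoter: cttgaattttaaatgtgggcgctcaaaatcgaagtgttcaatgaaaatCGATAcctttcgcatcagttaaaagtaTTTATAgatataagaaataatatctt
H promoter: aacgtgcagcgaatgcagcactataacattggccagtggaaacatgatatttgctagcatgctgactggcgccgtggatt
N intron: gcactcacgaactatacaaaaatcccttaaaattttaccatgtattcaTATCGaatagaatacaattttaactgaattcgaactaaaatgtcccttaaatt

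Reproducible promoter peaks were found at 6 of the 10 members. An IDR summit within 500 bp of a transcription start site (TSS) lay at neur, mib1, Psn, Su(H), H and mam, and at none of N, Dl, Ser and nct. By role, the receptor and ligands had such a summit at 0 of 3 genes, the ubiquitin ligases at 2 of 2, and the processing and nuclear components at 4 of 5, with nct as the exception. The share over all protein-coding genes was 30.7%. In the relaxed lists, which hold 30000 peaks each, the members with a promoter summit numbered 8 in the pooled list, 7 in replicate 2 and 8 in replicate 3, against 46.3%, 49.4% and 48.0% of all protein-coding genes. These longer lists added N and Dl. Ser and nct had no summit near a TSS in any of the 4 lists.

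Position in the pooled list decides which peaks count as reproducible here. The 5048 IDR peaks were the 5048 strongest peaks of the pooled list, with the same interval, summit and signal. Signal is given below as a multiple of the median over the 5048 strongest peaks of the same list, because the authors' scale is not stated, and ranks count from 1 at the strongest peak. The weakest IDR peak stood at 0.528 of that median. Among the members, the weakest strongest-promoter peak inside the threshold was that of Su(H) at rank 4106, and the nearest outside was that of Dl at rank 5936. The strongest pooled promoter peaks of Dl and N had the same deposited −log10 q as every IDR peak (4.23), as did 8491 pooled peaks in all.

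**Figure D1:**
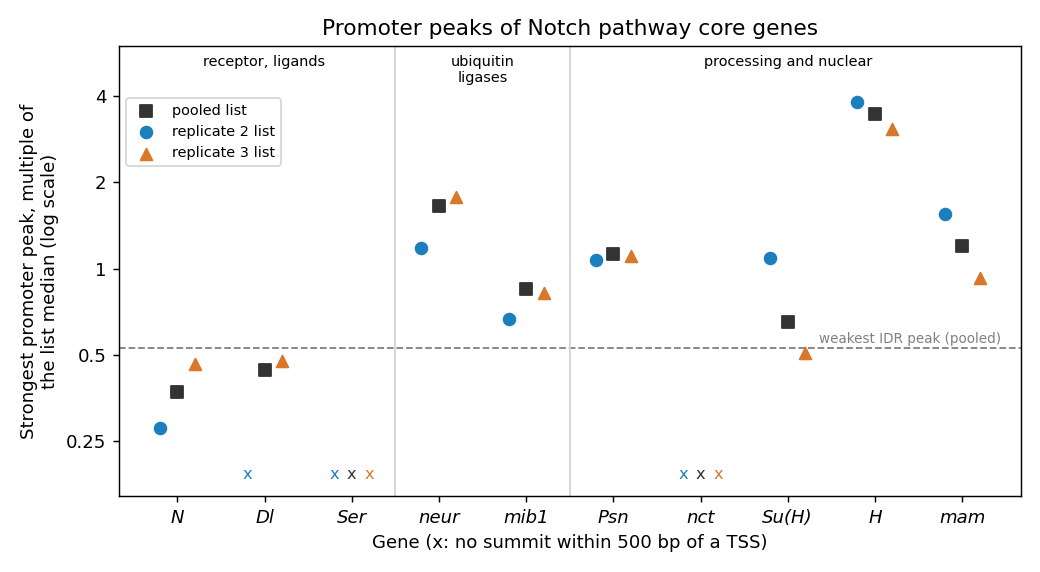
Signal of the strongest peak within 500 bp of a TSS at each member, as a multiple of the median of the 5048 strongest peaks of the same list (log axis), in the pooled list (squares), replicate 2 (circles) and replicate 3 (triangles). The dashed line is the weakest IDR peak in the pooled list, at 0.528. N and Dl lie below it in every list where they have a summit, and Su(H) does in replicate 3 only (0.508). Crosses mark lists with no summit, and H is the highest in all 3 lists.

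The receptor gene N (FBgn0004647, X:3134870-3172221 on the plus strand) has 1 TSS. Its promoter summits lay at -165 relative to the TSS (upstream negative) in replicate 2 and at -25 in replicate 3, which is 140 bp apart. Their signal was 0.277 and 0.464 times the list medians, at ranks 9403 and 5985. In the pooled list the summit was at -90, at rank 6844 and 0.371 times the median. N therefore had a weak promoter peak in both libraries and no promoter peak in the IDR list.

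Dl, annotated as Delta (FBgn0000463, 3R:19302731-19326217 on the minus strand), encodes a ligand and has 1 TSS. Replicate 3 placed a summit at -114 at rank 5835, 0.477 times the median, and the pooled list placed one at -113 at rank 5936, 0.441 times the median. Replicate 2 had no summit within 500 bp of the TSS among its 30000 peaks. The Dl promoter peak was thus present in 1 of 2 libraries. A weaker second summit lay at -315 in the pooled list, with 0.224 times the median, and at -342 in replicate 3, with 0.21 times. For Ser (FBgn0004197, 3R:27172090-27194267 on the minus strand), the second ligand gene, neither of its 2 TSSs had a summit within 500 bp, and no summit of any list lay elsewhere in the gene.

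Both ubiquitin ligase genes carried IDR peaks. neur (FBgn0002932, 3R:9020348-9039471 on the minus strand) has 2 TSSs, at 9039471 for the transcripts neur-RC, neur-RD and neur-RE and at 9033731 for neur-RA and neur-RB. The inner start had the stronger peak, with a summit at -209, rank 1269 and 1.65 times the median, within an intron of the longer transcripts. Replicate 2 gave 1.18 times its median at -254, and replicate 3 gave 1.78 times at -208 (mean 1.48 ± 0.424 SD, n = 2). At the outer start the IDR summit was at -174, rank 3110 and 0.842 times the median, with 0.719 in replicate 2 and 0.908 in replicate 3. That outer summit lies in an intron of hyx, which encodes a subunit of the Paf1 elongation complex and is read in the opposite direction. It was nearer to a TSS of hyx (at -121) than to that of neur, so it cannot be assigned to neur alone, while the inner summit had no other TSS within 500 bp.

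At mib1 (FBgn0263601, 3L:16006552-16011812 on the minus strand) the IDR summit lay at -12 from the outer of its 2 TSSs, at rank 3099 and 0.845 times the median. The replicates gave 0.668 and 0.824 times their medians, at -37 and -12 (mean 0.746 ± 0.11 SD, n = 2). No other gene had a TSS within 500 bp of this summit. Near the inner TSS, at 16010309, the pooled list held a summit with 0.0994 times the median and replicate 3 one with 0.0977 times, at -425 and -402, and replicate 2 held none.

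The catalytic subunit of gamma-secretase and its partner differed in presence. At Psn (FBgn0284421, 3L:20432468-20435156 on the plus strand) the IDR summit lay 21 bp downstream of the first of 3 TSSs, at rank 2157 and 1.12 times the median. The libraries gave 1.07 and 1.11 times their medians, at +18 and +63 (mean 1.09 ± 0.0283 SD, n = 2), the closest agreement among the members. The start of Psn is 107 bp from that of Las, a lipoic acid synthase gene on the opposite strand, and the summit was at -128 from the Las TSS. At nct, annotated as Nct (FBgn0039234, 3R:24851601-24854869 on the plus strand), none of the 4 lists had a summit within 500 bp of its 1 TSS or elsewhere in the gene. Gamma-secretase has 4 subunits, and of the other two, aph-1 had an IDR promoter summit (rank 1089, 1.85 times the median), and pen-2, named here after its values were seen, had a promoter summit in replicate 3 only (rank 3657, 0.732 times). Promoters of 2 of the 4 subunits therefore carried IDR summits.

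Su(H) and H, the DNA-binding effector of the pathway and its antagonist, lay at opposite ends of the range of bound members in the IDR list. In replicate 2 Su(H) was not at the low end, at 1.09 times the median against 1.07 for Psn and 0.668 for mib1. At H (FBgn0001169, 3R:20621938-20628915 on the plus strand) the IDR summit was at -24 from the only TSS, at rank 534 and 3.48 times the median. The replicates gave 3.83 times at -47 and 3.08 times at -19 (mean 3.46 ± 0.53 SD, n = 2). A second summit in the same 905 bp interval lay 179 bp downstream, at rank 2171 and 1.12 times the median, with 0.847 in replicate 2 and 1.21 in replicate 3. No other gene had a TSS within 500 bp of either H summit.

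At Su(H) (FBgn0004837, 2L:15039488-15043334 on the plus strand) the IDR summit was at -239 from the only TSS, at rank 4106 and 0.651 times the median. Here the replicates diverged: replicate 2 gave 1.09 times its median at -346, with a second summit of 0.955 times at -145, and replicate 3 gave 0.508 times at -36 (mean 0.799 ± 0.412 SD, n = 2). The strongest summits of the libraries were 310 bp apart, and that of replicate 3, at rank 5496, lay outside its 5048 strongest peaks. The mean and SD therefore join summits at different positions and may not describe 1 peak. With the strongest peaks of replicate 3 alone, Su(H) had no promoter peak and the count of members fell to 5. CIAPIN1, an iron-sulfur cluster assembly gene on the opposite strand, starts 627 bp away, and the IDR summit was at -388 from its TSS. The strongest summit of replicate 2 was nearer to CIAPIN1 (at -281) than to Su(H).

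The coactivator gene mam (FBgn0002643, 2R:13991203-14060356 on the plus strand) is the longest member and has 3 TSSs. Its strongest IDR summit lay at -302 from the first TSS at rank 1965, 1.2 times the median, and a second at -102 had rank 3185 and 0.825 times the median. Replicate 2 gave 1.55 and replicate 3 gave 0.926 times the median at the stronger of these summits, which was at -311 in both (mean 1.24 ± 0.441 SD, n = 2). RN-tre, a gene for a Rab GTPase-activating protein, starts 496 bp away on the opposite strand, and the stronger summit was nearer to its TSS (at -194) than to that of mam. The weaker summit was nearer to mam.

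**Figure D2:**
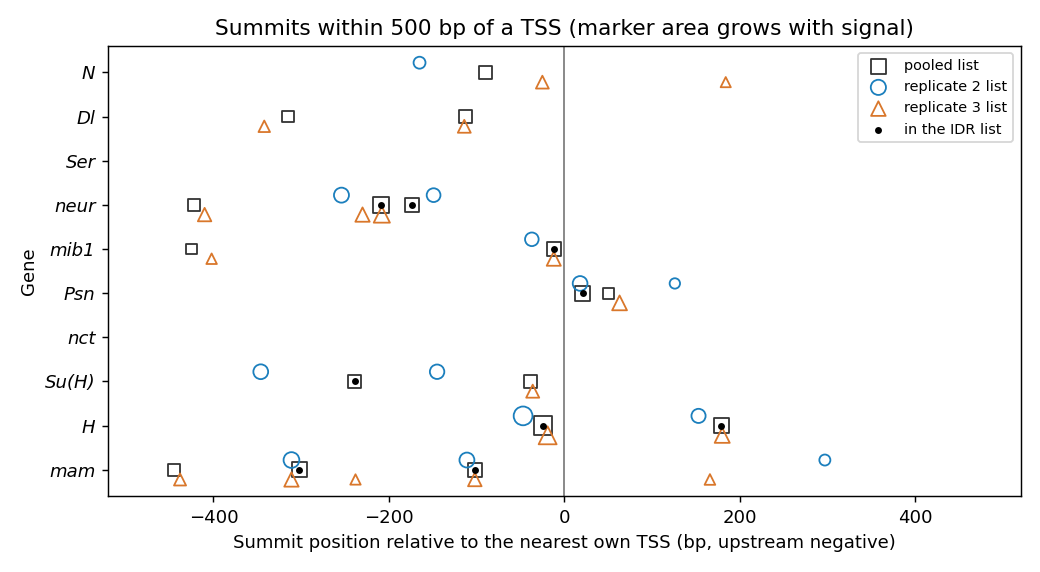
Position of every summit within 500 bp of a TSS of a member, relative to the nearest TSS of the same gene in bp (upstream negative), for the pooled list (squares), replicate 2 (circles) and replicate 3 (triangles); marker area grows with signal and black dots mark IDR summits. The strongest summits of Psn, H, mib1 and mam repeat to within 45 bp between replicates, and those of Su(H) are 310 bp apart. Some weaker summits of Psn, mib1 and mam appear in 1 replicate only.

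In order of the mean of the replicates, signal fell from H (3.46) through neur (1.48), mam (1.24), Psn (1.09), Su(H) (0.799) and mib1 (0.746) to N (0.371). The mam values are those of the summit nearer to RN-tre, and the replicate 2 value of Su(H) is that of a summit nearer to CIAPIN1. The lower of the H values, 3.08, was above every value of the other members, of which the highest was 1.78 at neur. Between H and N, each gene's range overlapped that of its neighbour in this order, so neighbours there do not differ beyond their spread. The Su(H) range joins summits 310 bp apart, so its place in the order is the least certain. Both libraries placed neur above Psn and Psn above mib1, with ranges that did not overlap. Both N values were below those of every member with an IDR promoter summit.

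Compared with all 4284 bound genes, the bound members spread over most of the range. Ranked by the strongest promoter peak from the top, H stood at 12.1% of the bound genes, neur at 29.3%, mam at 45.8%, Psn at 50.4%, mib1 at 70.6% and Su(H) at 87.6%. The mam position is that of the summit nearer to RN-tre, and the summit nearer to mam had 0.825 times the median at rank 3185. The median over all bound genes was 1.13 times the median peak (quartiles 0.789 and 1.83). Their summits lay at a median of -116 (quartiles -189 and -50), and 90.1% were upstream of the TSS. Of the 6 bound members, Psn alone had its strongest summit downstream of its nearest TSS, and neur, Su(H) and mam had theirs further upstream than the lower quartile. The Psn summit, at 20432489, lies upstream of the other Psn starts, at 20432595 and 20432639.

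**Figure D3:**
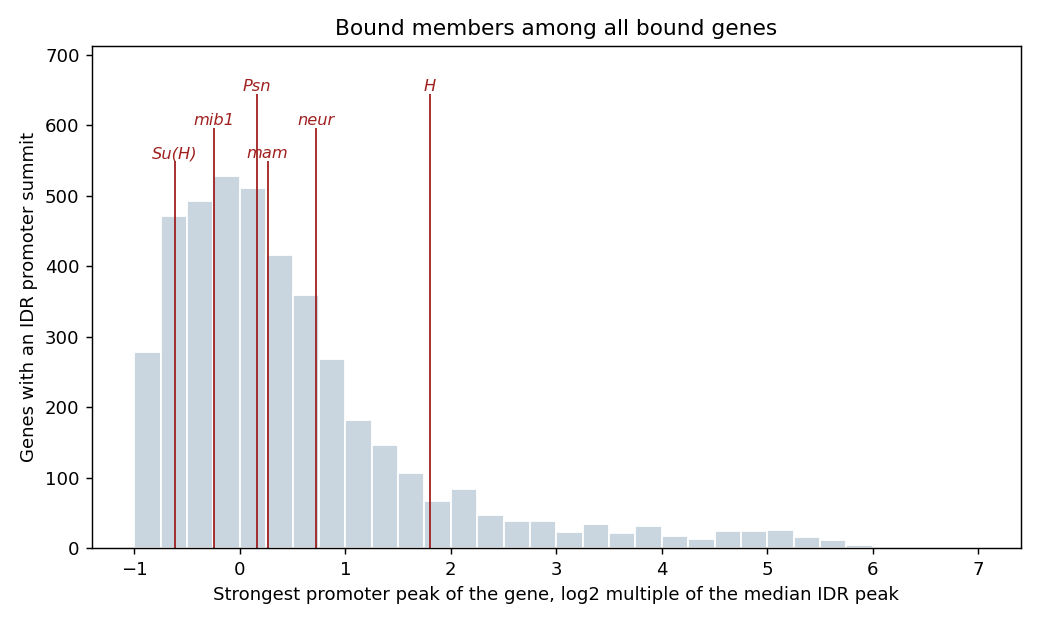
Number of protein-coding genes with an IDR promoter summit (4284 in all, bars) by the log2 multiple of their strongest promoter peak, with the 6 bound members marked by lines. H lies in the upper part of the distribution, and the other 5 members lie within its main body, Su(H) lowest.

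Away from promoters, IDR summits lay in N, neur and mam. Such a summit was found in 3 of 10 members, against 4.84% of all protein-coding genes. Gene length matters to this count: among the 1359 genes of at least 15 kb the share was 26.1%, and the members that long are N, Dl, Ser, neur and mam, of which 3 of 5 had one. The N summit lay in the fifth of 8 introns, 27.6 kb downstream of the TSS and 9.71 kb before the end of N-RA (interval chrX:3162332-3162723). Its signal was 0.878 times the median at rank 2957, with 1.05 in replicate 2 and 0.731 in replicate 3, whose summits were at 27653 and 27623 bp. It was more than 2 times as strong as the promoter peak of N in the pooled list (0.878 against 0.371), and the same order held in replicate 2 (1.05 against 0.277) and replicate 3 (0.731 against 0.464). No TSS lay within 500 bp of the summit, and the nearest, that of CG18508, was 10631 bp away.

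The intronic summit of neur lay 1.71 kb downstream of the inner TSS, at rank 4073 and 0.656 times the median. Replicate 3 held it at 0.626 times the median and replicate 2 did not list it. The intronic summit of mam lay at -6533 bp from the innermost TSS, in a 27.5 kb intron, at rank 3614 and 0.735 times the median, with 0.807 in replicate 2 and 0.677 in replicate 3. Its nearest TSS was that of CG18371, relative to which it lay at -3490. Each of these summits was weaker than the strongest promoter peak of its gene.

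Weaker summits separated the long members further. The relaxed pooled list held 30 summits elsewhere in mam, 10 in N, 9 in neur and 0 in Dl and in Ser. Per 10 kb these are 4.34, 2.68 and 4.71 for mam, N and neur, where genes of at least 15 kb had a median of 0.461 and an upper quartile of 2.59. Only 1 of the summits in each of these 3 genes was in the IDR list. The weakest had 0.0597, 0.0716 and 0.0698 times the median in mam, N and neur. Their deposited −log10 q was 0.268, 0.34 and 0.327, where IDR peaks had 4.23, so these counts include very weak calls. Replicate 2 listed 18 in mam, 3 in N and 2 in neur, and replicate 3 listed 38, 15 and 12. Some of the counted summits lay near starts of other genes. In neur 1 was 113 bp downstream of a hyx TSS in replicate 2, and 104 bp downstream in the pooled list and replicate 3. Some mam summits of the pooled list and replicate 3 lay within 500 bp of the start of mir-4978. In replicate 3 the densities were 5.49, 4.02 and 6.27 per 10 kb for mam, N and neur, above the upper quartile of 3.0 for long genes. In replicate 2 they were 2.6, 0.803 and 1.05, where the median was 0.782 and the upper quartile 2.02, so mam alone stood above the upper quartile in both libraries. N and neur thus had at least 5 times as many summits in replicate 3 as in replicate 2. In Dl the replicates listed 0 and 1, the latter 4.21 kb downstream at 0.237 times the median.

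**Figure D4:**
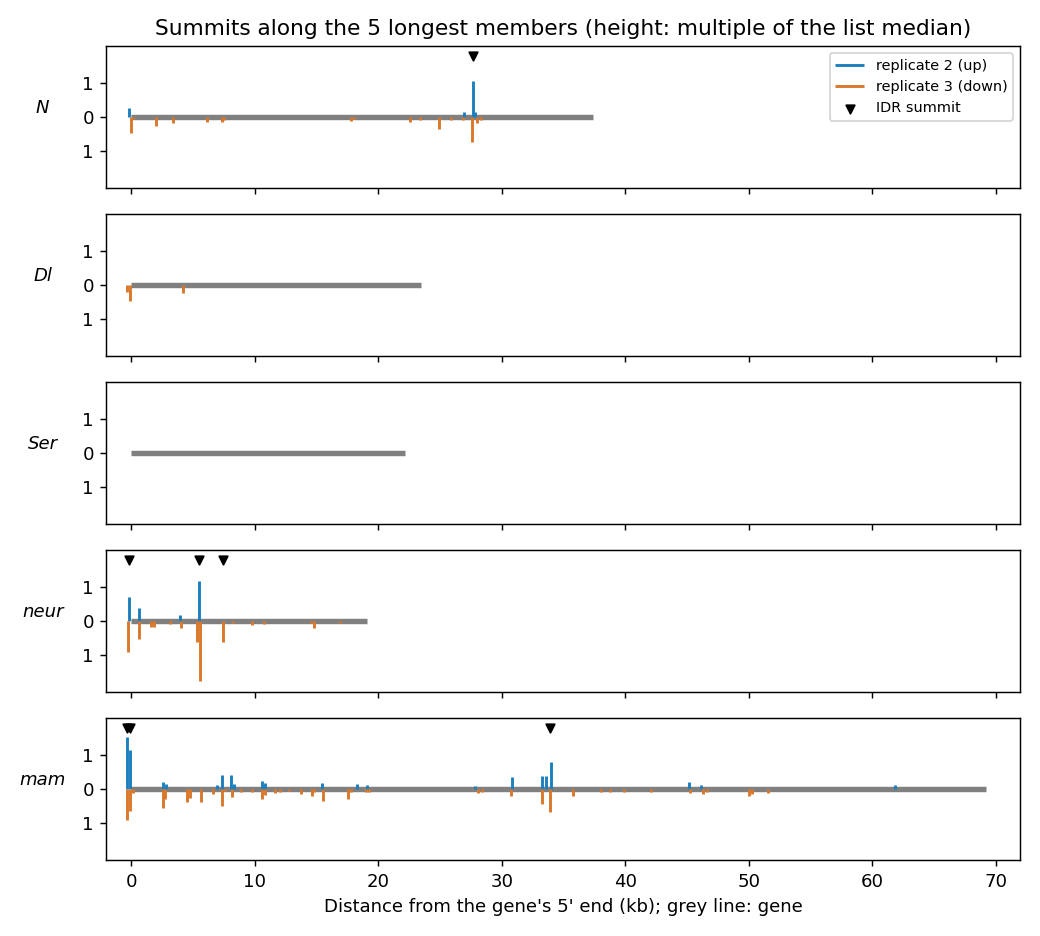
Summits along the 5 members of at least 15 kb by distance from the 5' end in kb, with height as the multiple of the list median for replicate 2 (up) and replicate 3 (down) and triangles at IDR summits; the grey line is the gene. N has its strongest summit 27.6 kb downstream of its start, neur and mam are strongest at promoters, Dl has only weak summits in replicate 3, and Ser has none.

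The bound members were also set beside the arrangement of their promoters. Of 3815 protein-coding genes with a gene on the opposite strand starting within 500 bp upstream, 64.4% were bound, against 18.1% of the other 10130. A summit counted for every gene with a TSS within 500 bp, so 1 peak near such paired starts could count for both genes. The share with a neighbour is therefore raised by construction. With each summit given to its nearest TSS only, the share over all protein-coding genes fell from 30.7% to 22.3%. The members with such a neighbour are neur (hyx, 295 bp), Psn (Las) and mam (RN-tre), and all 3 were bound. Of the 7 without one, mib1, Su(H) and H were bound and N, Dl, Ser and nct were not. Among genes with 1 TSS and no such neighbour, which include N, Dl, nct, Su(H) and H, 14.2% were bound, and 29.7% were among those with at least 2 TSSs, which include Ser and mib1. The part of promoter arrangement in the difference between the ligands with their receptor and the other members was not tested.

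The windows of 50 bp either side of the 9 IDR promoter summits of members were searched for 6 motifs on both strands. CGATA, the core that the boundary factor BEAF-32 binds and which also lies within the longer element TATCGATA (the DRE), was found at 4 of the 9, in mib1, Su(H), H and mam, where 31.0% of all 3541 IDR promoter summits had it. At mib1 and Su(H) a match began 2 bases before the summit, at the second H summit 6 bases before it, and at the N intron summit 2 bases before it. A second mib1 match began 17 bases after the summit, and the mam matches began 28 and 37 bases after its weaker summit. Over all promoter windows with CGATA, 30.3% had a match centred within 10 bp of the summit. TATAAA was found at 3 of the 9, in neur, Su(H) and mam, against 22.9%, with first bases from -195 at neur to -320 at mam relative to the TSS. GGTCACAC, the core of motif 1, was found once, at H, beginning 18 bases downstream of the TSS, against 3.95%. TATCGATA (7.23% of all), GAGAG (6.75%) and TGGGAA, the core of the Su(H) site (4.69%), were found at none of the 9. The 4 GAGAG matches in the printed Dl window overlap in part and lie under a summit outside the IDR list. GC content ranged from 20.8% at the stronger mam summit to 47.5% at mib1 and H, where the median over all promoter summits was 33.7%.

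A wider list of 46 pathway genes put these counts beside their surroundings. Of these, 21 had an IDR promoter summit (45.7%, against 30.7% of all protein-coding genes), with a median signal of 1.38 times the median peak, where all bound genes had 1.13. With a 200 bp window 12 of the 46 were bound, against 24.9% of all protein-coding genes. A neighbour on the opposite strand within 500 bp was present at 12 of the 46, of which 10 were bound, and 11 of the other 34 were bound. Over all protein-coding genes those shares were 64.4% with such a neighbour and 18.1% without. In both sets a summit could count for both neighbours, which raises the share with a neighbour.

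On the ligand side 5 of 9 genes were bound (55.6%, against 30.7% of all protein-coding genes). Endocytic genes led: shi, which encodes dynamin, at 2.27 times the median, aux (auxilin) at 1.69, Chc (clathrin heavy chain) at 1.38 and lqf (epsin) at 0.892. Brd, Tom and Ocho, small inhibitors of Neuralized from the Bearded family, had no IDR summit and had at most 0.198 times the median in the pooled list. In receptor maturation and cleavage 5 of 10 genes were bound. The strongest was shams, a xylosyltransferase that modifies Notch, at 14.6 times the median (12.8 and 14.7 in the replicates). Fur1 (a furin) followed at 2.86, aph-1 at 1.85 and rumi (an O-glucosyltransferase) at 1.28. All of these but aph-1 have a start on the opposite strand within 500 bp upstream. Fur1 was not bound when each summit went to its nearest TSS only. The glycosyltransferase gene fng and the metalloprotease genes kuz and Tace were not in the IDR list and had 0.206, 0.513 and 0.277 times the median in the pooled list.

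Trafficking and turnover genes were bound in 4 of 7 cases (57.1%, against 30.7% of all protein-coding genes). krz (a beta-arrestin) had 4.39 times the median, lgd (annotated as l(2)gd1, an endosomal regulator of Notch) 3.32, numb (a Notch inhibitor) 2.57 and Nedd4 (a ubiquitin ligase) 0.758. The krz summit lay at -495 from its TSS, at the edge of the window, and replicate 3 had none within it. A start on the opposite strand lies within 500 bp upstream of krz, lgd and Nedd4, and krz was not bound with the nearest TSS only. Among the unbound genes, spdo had no summit in any list, and Su(dx) and dx had 0.516 and 0.47 times the median in the pooled list. Nuclear cofactors were bound in 4 of 5 cases, at 1.13 times the median for the corepressor gene gro, 0.726 for Bx42 (SKIP), 0.725 for the corepressor gene CtBP and 0.706 for nej (CBP). insv, which encodes a corepressor that works with Su(H), was the exception, with 0.309 times the median in the pooled list.

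Among the targets 3 of 15 genes were bound. All 3 are in the E(spl) complex, whose genes are the classic direct targets of Notch. Of the 11 complex genes on the list 3 were bound (27.3%), no higher a share than the 30.7% of all protein-coding genes. With each summit given to its nearest TSS only, E(spl)m3-HLH was not bound. E(spl)m7-HLH had 2.99 times the median at -383, with 2.24 and 3.17 in the replicates, E(spl)m3-HLH had 2.72 at -422, with 2.92 and 2.45, and E(spl)mdelta-HLH had 1.38 at -290, with no summit in replicate 2 and 1.33 in replicate 3. These summits lay further upstream than the lower quartile of all bound genes (-189). E(spl)mgamma-HLH, E(spl)mbeta-HLH and E(spl)malpha-BFM had no IDR summit and at most 0.122 times the median in the pooled list. The tagged gene itself, CG30020, had an IDR summit at -22 from its TSS, at rank 1748 and 1.3 times the median, with 1.25 and 1.23 in the replicates.

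**Figure D5:**
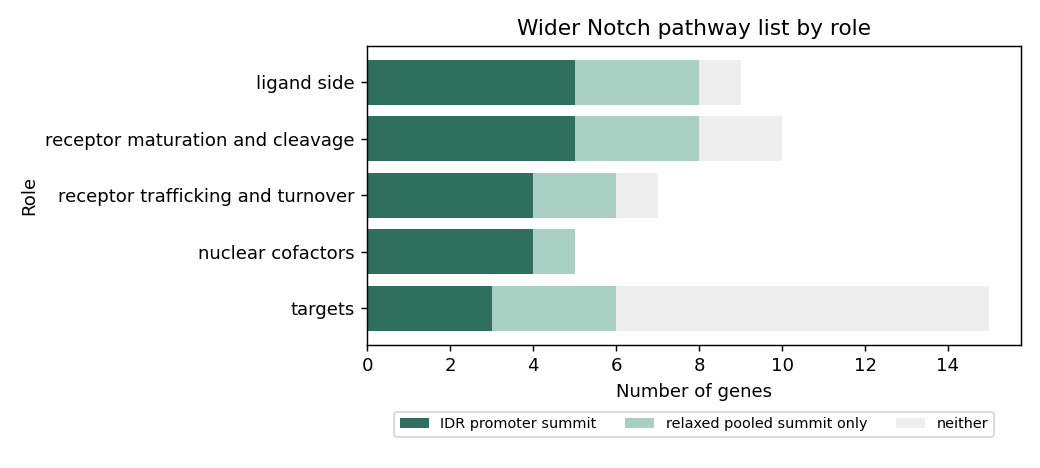
Number of genes of the wider Notch pathway list in each role, split into those with an IDR promoter summit, those with a promoter summit in the relaxed pooled list only, and those with neither. IDR promoter summits within 500 bp were found at 4 of 5 nuclear cofactors and at 3 of 15 targets, with the other roles between. Over all protein-coding genes the share was 30.7%. A 200 bp window left no targets (24.9% of all genes bound), and assignment to the nearest TSS only left gro and nej of the cofactors (22.3% of all genes bound).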

How the data were processed

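The authors deposited 4 peak lists on dm6, per the file headers and notes: 1 for each replicate, 1 pooled and 1 thresholded by IDR, called against 1 control alignment. Which aligner and peak caller were used is not given in the sources used here. Depth per library is unknown, so no depth-based limit can be put on an absent peak. The deposited signal per peak is the authors' own value with no stated scale; it describes and ranks peaks within a list. Values of −log10 q, also deposited, reach a ceiling (4.23 for all IDR peaks) and ranked nothing.

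The Release 6 genome and Ensembl release 115 gene models were used, without transposable elements, and every peak fell within their chromosomes. Of the members, 8 matched by symbol and 2 by synonym. A gene counted as bound when a summit lay within 500 bp of any TSS; a summit elsewhere in the gene lay in it but outside that window. Such assignment was tested on simulated data. The IDR and pooled lists are the authors' merged values; mean ± SD are over the 2 replicate lists. The tools were Python 3.11.15, pandas 2.3.3, numpy 2.4.6 and matplotlib 3.10.9.

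Members, lists and motifs were chosen with earlier results of these data known. Genes named were the members, genes with a TSS near or nearest to their summits, CG30020, and per role of the wider list up to 4 bound genes by signal and up to 3 unbound in listed order. Alternatives were windows of 200 and 1000 bp, interval overlap, the stronger IDR peaks, nearest or outer TSS, and each replicate or the pooled list by its 5048 strongest peaks. Promoter sequences of Psn and mam are not reported here.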

Additional observations from a re-analysis of the deposited data

How the results depend on the processing

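Over 9 alternatives the bound members numbered 4 to 6 of 10, the receptor and ligands stayed at 0 of 3, and the processing and nuclear components had 3 to 4 of 5. These alternatives could hardly change the 0 of 3. Each kept at most the 5048 strongest peaks of a list, and every promoter summit of N and Dl ranked below those. The full relaxed lists had 2 of 3 in the pooled list, 1 of 3 in replicate 2 and 2 of 3 in replicate 3. Su(H) had no call with a 200 bp window or without replicate 2 (5 members left in each case), because its summits there lay outside the window or the 5048 strongest peaks. The stronger 2524 IDR peaks left neur, Psn, H and mam, so the ubiquitin ligases fell to 1 of 2, while the share over all protein-coding genes fell to 18.0%. The wider list fell to 12 of 46 genes with the 200 bp window, which left no target gene, and ranged from 12 to 23. With that window 24.9% of all protein-coding genes were bound, so the share of the wider list was then near that of all genes. With the nearest TSS only it had 15, without O-fut1, Fur1, krz, CtBP, Bx42 and E(spl)m3-HLH, where 22.3% of all protein-coding genes were bound. Its total and its counts by role therefore depend on the window and the assignment. Members with a summit elsewhere in the gene numbered 2 to 3, neur being lost without replicate 3. With 1 replicate left out, signal ranged from 1.18 to 1.78 at neur, 0.668 to 0.824 at mib1, 1.07 to 1.11 at Psn, 0.508 to 1.09 at Su(H), 3.08 to 3.83 at H and 0.926 to 1.55 at mam. The 5048 strongest pooled peaks gave the IDR counts by construction. No paired analysis was possible because the labels give 1 group and no result comes from a test. Group sizes of 2 are too small to single out a library by its value. Sequencing depth is unknown, so a peak missing from a list may lie below what that library could show.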
